A study of Mus musculus with 4 samples.

Results

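The genes described here supply, load and clear the fast transmitters glutamate, GABA and glycine, or set the chloride gradient on which the inhibitory ones act. They are Slc17a6, Slc17a7, Slc32a1, Gad1, Gad2, Slc6a5, Slc6a9, Slc12a2 and Slc12a5 (in the table SLC17A6, SLC17A7, SLC32A1, GAD1, GAD2, SLC6A5, SLC6A9, SLC12A2 and SLC12A5), 9 genes of 30854 gene symbols on an Illumina MouseWG-6 v2.0 beadchip, and every probe that the deposited table assigns to 1 of these symbols was taken, 19 probes of 45281. RNA came from the cerebellum of Swiss mice at postnatal day 7 (PN7), for which the labels name no treatment or genotype, and the anterior lobes of 2 samples were compared with the posterior lobes of 2 samples, each sample on its own array. The labels do not state whether the samples came from separate animals or from pools, so the p-values measure only the spread between these samples. The question was which of these genes differ in signal between the lobes.

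Excitatory neurons fill their synaptic vesicles with glutamate through the vesicular glutamate transporters vGlut1 (Slc17a7) and vGlut2 (Slc17a6). In the cerebellum vGlut1 marks mature granule neurons and their parallel fibres, while vGlut2 is found in climbing fibres and, early after birth, in young granule neurons, which exchange it for vGlut1 as they mature. Inhibitory neurons make GABA with glutamate decarboxylase (Gad1 and Gad2) and load GABA and glycine through 1 shared vesicular transporter (Slc32a1). Glycine is taken up again by GlyT1 (Slc6a9), found mainly on glia, and by GlyT2 (Slc6a5), found on glycinergic neurons such as Golgi cells. The importer NKCC1 (Slc12a2) raises chloride inside the cell and the exporter KCC2 (Slc12a5) lowers it, and the shift from the first to the second makes GABA inhibitory in the maturing neuron.

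A probe is a short DNA sequence on many beads, and its signal is the mean intensity of its beads. Signals were quantile normalized between the 4 arrays and are given on the log2 scale. The detection p-value of a probe is the proportion of the negative controls that shine as strongly. A probe was tested where this value was below 0.05 on 2 or more arrays, which held for 10 of the 19 probes, standing for 6 of the 9 genes. Differences are posterior minus anterior, tested with limma over all 21726 such probes with Benjamini-Hochberg adjustment. The criterion of the study, a difference over 1.2-fold with an unadjusted p under 0.05, was met by 2 of the 10 probes, Slc17a6 on the higher and Slc6a9 on the lower side of the posterior lobes. Over all tested probes 8.29% met it, 3.30% higher and 5.00% lower. No probe of the 9 genes passed an adjusted p of 0.05 by limma (0.106% of all tested probes did). At an unadjusted p under 0.05 there were 4 by limma (10.1% of all tested probes) and 2 by the methods' t-test (8.11% of all), which gave none after adjustment. The 2 arrays of a lobe did not overlap with those of the other for 5 of the 10 probes (42.6% of all tested probes). In the posterior lobes 2 were above (21.1% of all) and 3 below (21.5% of all). In a sample of whole tissue, fewer cells that carry a transcript and less of it per cell cannot be told apart.

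**Figure D1:**
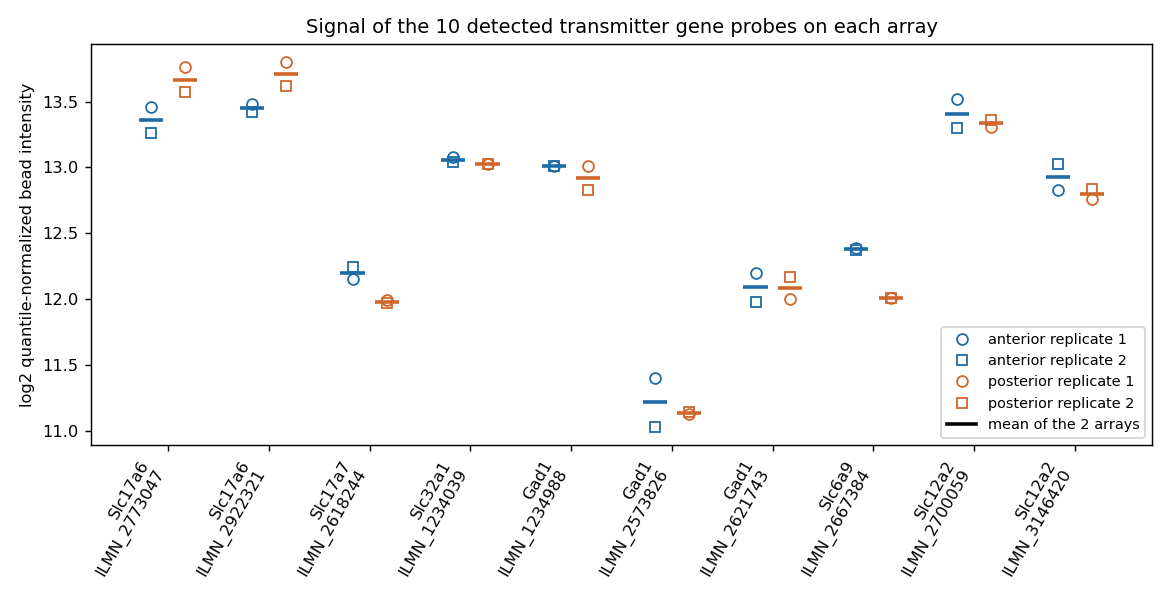
Log2 quantile-normalized bead intensity (vertical axis) of the 10 tested probes (horizontal axis) on each array. Blue stands for anterior and orange for posterior lobes, circles for replicate 1, squares for replicate 2, and bars for the mean of the 2 arrays. Both posterior arrays lie above both anterior arrays for the 2 probes of Slc17a6 and below them for Slc17a7, Slc32a1 and Slc6a9.

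The median intensity of an array lay between 110.2 and 129.6 before normalization. Between 46.5% and 47.6% of probes were detected per array. Within the anterior pair the log2 differences of the tested probes spread with an SD of 0.318, and within the posterior pair with an SD of 0.203. For the 10 probes described here the standard error over the 27 to 59 beads of a probe was 2.30% to 5.03% of the signal within an array. The number of arrays limits the precision.

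The upstream sequences of the 3 genes whose lobes separated beyond an unadjusted p of 0.05 are shown so that the start regions can be set side by side. They are the 250 bases before the first listed start, on the plus strand of GRCm38.p6, from RefSeq, at chr7:51621580-51621829 for Slc17a6, chr7:45163671-45163920 for Slc17a7 and chr4:117835008-117835257 for Slc6a9. Capitals mark E-boxes (CAGCTG on either strand and CATCTG with its reverse complement CAGATG), the kind of site bound by the factors that found the granule and GABAergic lineages, and GC boxes (GGGCGG with its reverse complement CCGCCC).
Slc17a6: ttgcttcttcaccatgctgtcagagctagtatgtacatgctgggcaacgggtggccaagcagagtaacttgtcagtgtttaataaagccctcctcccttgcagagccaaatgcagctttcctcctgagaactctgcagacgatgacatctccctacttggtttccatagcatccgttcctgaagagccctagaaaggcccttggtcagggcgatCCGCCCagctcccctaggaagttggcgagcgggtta
Slc17a7: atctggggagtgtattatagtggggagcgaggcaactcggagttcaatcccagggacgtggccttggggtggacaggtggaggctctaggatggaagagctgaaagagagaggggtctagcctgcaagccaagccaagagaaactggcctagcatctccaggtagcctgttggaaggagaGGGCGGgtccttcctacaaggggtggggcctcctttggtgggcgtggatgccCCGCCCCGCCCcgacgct
Slc6a9: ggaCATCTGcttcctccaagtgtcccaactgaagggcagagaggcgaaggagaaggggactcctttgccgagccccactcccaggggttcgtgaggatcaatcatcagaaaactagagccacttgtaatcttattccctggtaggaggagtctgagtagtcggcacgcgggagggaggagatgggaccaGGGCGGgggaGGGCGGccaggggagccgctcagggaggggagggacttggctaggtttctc
The window of Slc17a6 held 1 GC box and no E-box, and that of Slc17a7 held 3 GC boxes, of which the last 2 overlap, and no E-box. The window of Slc6a9 held 1 E-box and 2 GC boxes. An E-box was held by 25.5% and a GC box by 32.7% of all 32851 mouse windows of that length. RefSeq windows were found for 8 of the 9 genes, 13 windows in all. These matches describe the letters of the windows and were not set against binding data.

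The gene of vGlut2, Slc17a6, was the only 1 of the 6 tested genes whose probes were higher in the posterior lobes. Its probe ILMN_2773047 had a log2 signal of 13.46 and 13.26 on the anterior arrays and of 13.76 and 13.57 on the posterior arrays, replicates 1 and 2 in that order. Both posterior arrays were above both anterior arrays, and within either lobe replicate 1 was the brighter array. The means were 13.36 ± 0.14 (SD, n = 2 arrays) and 13.66 ± 0.13. The difference was 0.30 (standard error 0.096, 95% interval 0.066 to 0.54, adjusted p = 0.40 by limma), a signal 1.23 times as high in the posterior lobes, and it met the 1.2-fold criterion. A second probe, ILMN_2922321, gave 13.48 and 13.42 in the anterior and 13.80 and 13.62 in the posterior lobes. Its difference of 0.26 (95% interval 0.065 to 0.45, adjusted p = 0.39 by limma) lay just under the 1.2-fold limit of 0.263, so both probes of the gene measured nearly the same difference and fell on either side of the limit. The call of ILMN_2773047 was lost without anterior replicate 2, at a difference of 0.20, and without posterior replicate 1, at 0.21. ILMN_2922321 met the criterion without anterior replicate 1, at 0.29, and without posterior replicate 2, at 0.35. Without anterior replicate 1 both probes of Slc17a6 and that of Slc6a9 passed the adjusted p by limma, where 12% of all tested probes did.

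The gene of vGlut1, Slc17a7, went the other way. Its probe ILMN_2618244 had a log2 signal of 12.15 and 12.24 on the anterior arrays and of 11.99 and 11.97 on the posterior arrays. The posterior arrays were nearly equal and both lay below the anterior arrays. The difference was -0.22 (standard error 0.072, 95% interval -0.40 to -0.040, adjusted p = 0.42 by limma), which leaves 0.860 of the anterior signal. It had an unadjusted p of 0.024 by limma but stayed under 1.2-fold and did not meet the criterion.

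The glutamate transporters were also set against each other within each array. The brightest probe of each gene was used, and only the shift between lobes is read, since the levels of 2 probes are not comparable. The log2 ratio of Slc17a7 to Slc17a6 was -1.32 and -1.18 on the anterior and -1.81 and -1.65 on the posterior arrays. The shift from anterior to posterior was -0.48, against an SD of 0.099 between the anterior and 0.12 between the posterior arrays. All 4 arrays kept the order of their lobes, but 2 arrays against 2 cannot give less than p = 0.333 in an exact two-sided permutation test, and p = 0.333 was the value found. With the mean of both Slc17a6 probes the shift was -0.50. A like ratio was planned for Slc12a5 to Slc12a2, Gad2 to Gad1 and Slc6a5 to Slc6a9, and is not given because 1 gene of each pair was near background.

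Markers of glutamatergic cells were measured on the same arrays. Of 16 genes of granule neurons and their progenitors 13 were tested, of which 2 were higher (Zic2 and Grin2c) and 2 lower (Etv1 and Gabrd) past the criterion. Gabrd passed on its dimmer probe only, and its brighter probe, at -0.32, did not. Grin2c was detected on 3 arrays and near background, at log2 signals of 6.97 to 7.48. Over the 13 tested genes the median log2 difference was -0.044, next to 0.0079 over all 15615 tested genes. The summed intensity of the 13 genes was 86790 and 82350 on the anterior and 85840 and 81730 on the posterior arrays. Cbln1, the brightest of them and the precursor of a synapse organizer released by granule neurons, differed by -0.052. Atoh1, the factor that founds the granule lineage, was not above background. Of 8 genes of unipolar brush cells, excitatory interneurons that are frequent in the posterior lobes, 7 were tested, and Calb2, a calcium-binding protein, was the 1 past the criterion, at 0.37. The median of the list was -0.18, with 4 of the 7 below 0, Lmx1a at -0.39 the lowest. The sum was 15810 and 16410 on the anterior and 18410 and 17920 on the posterior arrays, and without Calb2, which is also on the list of interneurons below, it was 6598 and 6925 against 6307 and 5918. Of 10 genes of the cerebellar nuclei 7 were tested, with 2 lower and none higher past the criterion. The median was -0.35, with 6 below 0 and 1 above. Nefm, the brightest, was at -0.51, from 11.57 and 10.94 on the anterior to 10.7 and 10.79 on the posterior arrays. Spp1, detected on 3 arrays, had the largest difference, at 0.94, and did not meet the criterion. The sums of the list were 6897 and 4575 against 4658 and 4344. The part of these cells in the signals of Slc17a6 and Slc17a7 was not tested.

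**Figure D2:**
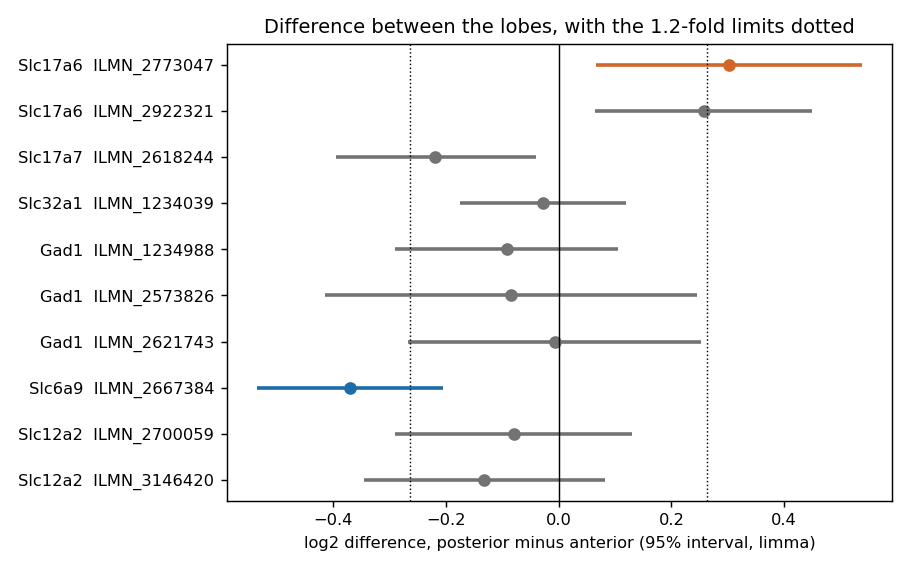
Log2 difference, posterior minus anterior (horizontal axis), of the 10 tested probes (vertical axis), with points for the limma estimate and bars for its 95% interval. Dotted lines mark 1.2-fold, and the probes that met the criterion are orange (higher) and blue (lower). The intervals of both Slc17a6 probes, Slc17a7 and Slc6a9 exclude 0, while those of Slc32a1, Gad1 and Slc12a2 include it.

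The genes of GABA synthesis and loading showed no difference past the criterion. Slc32a1, the vesicular transporter that GABA and glycine share, was nearly equal on the 4 arrays. Its probe ILMN_1234039 gave 13.08 and 13.04 on the anterior and 13.03 and 13.03 on the posterior arrays, a difference of -0.028 with a 95% interval of -0.18 to 0.12 (adjusted p = 0.91 by limma). As a ratio of posterior to anterior signal the interval runs from 0.886 to 1.09, inside 1.2-fold in either direction.

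Gad1, the enzyme that makes most of the GABA of the brain, was measured by 3 detected probes. ILMN_1234988 gave 13.01 on both anterior arrays and 13.01 and 12.83 on the posterior arrays. ILMN_2621743 gave 12.20 and 11.98 against 12 and 12.17, and ILMN_2573826 gave 11.40 and 11.03 against 11.13 and 11.14. The lobes overlapped on each of the 3 probes. Their differences were -0.092, -0.0070 and -0.084, with 95% intervals from -0.29 to 0.11, from -0.27 to 0.25 and from -0.41 to 0.25. On ILMN_2573826 the spread lay between the anterior arrays, and without anterior replicate 2 that probe met the criterion at -0.27, while without anterior replicate 1 it stood at 0.10. The fourth probe, ILMN_1231642, was at 72.8 and 61.5 in the anterior and 66.5 and 66.2 in the posterior lobes before normalization, with detection p-values from 0.567 to 0.761. The table gives no probe sequences, so it was not determined which transcripts of Gad1 each probe matches.

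Markers of the inhibitory neurons did not all stay level beside them. Of 16 genes of cerebellar GABAergic interneurons 11 were tested, and 5 were higher in the posterior lobes past the criterion, among them Prkcd, Cxcl14, Lhx5 and Calb2, at 0.68, 0.46, 0.37 and 0.37. The peptide gene Sst was lower at -0.63, and Pvalb, a calcium-binding protein of basket, stellate and Purkinje cells and the brightest of the list, stood at -0.25. The median was 0.28 and the sum was 47360 and 49470 on the anterior and 47680 and 49140 on the posterior arrays. Pax2, the factor of young interneurons, was not above background. Of 16 Purkinje cell genes 10 were tested, and Dab1, of the reelin pathway, was the 1 past the criterion, at -0.27. Their median was -0.11 and Itpr1, the brightest, differed by -0.067. The sums were 85110 and 88530 against 84060 and 83060. Calb1, Pcp4 and Car8, which Purkinje cells are known to express strongly, were not above background on this chip, so a probe at background does not show that its transcript is absent.

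Among the transporters of glycine, Slc6a9 (GlyT1) had the largest difference of the 10 probes in relation to its error. Its probe ILMN_2667384 had a log2 signal of 12.39 and 12.37 on the anterior and of 12.01 on both posterior arrays. The arrays of each lobe were nearly equal, and the lobes were far apart in comparison. The difference was -0.37 (standard error 0.067, 95% interval -0.53 to -0.21, adjusted p = 0.18 by limma), 22.6% less signal in the posterior lobes, and it met the 1.2-fold criterion. Of all tested probes 7.13% differed by more. Before normalization the intensities were 5812.6 and 4886.3 in the anterior and 4012.7 and 4203.4 in the posterior lobes, and did not overlap either. The difference met the criterion under all 15 alternative ways of processing, where it lay between -0.38 and -0.34, but is under 1.5-fold. A second probe, ILMN_1217832, was at background on the 4 arrays, with intensities between 58.4 and 72.2 and detection p-values from 0.514 to 0.881.

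Slc6a5 (GlyT2) was at background on both of its probes. ILMN_1249955 had intensities of 66.2 and 56.8 on the anterior and 61.5 and 62.6 on the posterior arrays, and ILMN_2987729 had 63.1 and 62.1 against 72.7 and 60.6. Between 0.493 and 0.927 of the negative controls were at least as bright. No fold is given for either.

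Glial and brainstem markers stood as follows beside Slc6a9. Of 11 genes of astroglia and Bergmann glia 10 were tested and none met the criterion, with a median of 0.0019 and Aqp4, the brightest, at -0.25. Their sum was 89250 and 80390 on the anterior and 87160 and 82000 on the posterior arrays. Of 15 genes of oligodendrocytes 13 were tested, and 11 of them were lower in the posterior lobes past the criterion, with a median of -0.86, and 4 passed the adjusted p by limma. Their sum was 122700 and 120500 on the anterior and 87260 and 81940 on the posterior arrays, so it moved with Slc6a9. Mbp, a main protein of myelin, was at -0.45, while Pdgfra, a marker of oligodendrocyte precursors, was higher at 0.47. Of 15 genes of the brainstem 13 were not above background, Chat, Tph2, Dbh and the 7 Hox genes among them, and Slc5a7, the brightest of the list, was at -0.44. The part of oligodendrocytes in the signal of Slc6a9 was not tested.

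The genes nearest in pattern to Slc6a9 and Slc17a6 were sought over the 4 arrays, among 19914 probes detected on all of them, by the Euclidean distance between log2 signals after subtracting the mean of each probe. Nearest to Slc6a9 were A230050P20Rik, Cdh13, a cadherin, and 1700007G11Rik, at distances of 0.016, 0.022 and 0.030. Nearest to Slc17a6 (ILMN_2773047) were Map3k6, a kinase, EG434168 and Gjd2, the gap junction protein connexin 36, at 0.016, 0.028 and 0.036. Over 4 arrays such a likeness is a description only.

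The chloride importer Slc12a2 (NKCC1) was bright in both lobes on 2 of its 5 probes and did not differ past the criterion. ILMN_2700059 gave 13.52 and 13.30 on the anterior and 13.31 and 13.36 on the posterior arrays, a difference of -0.079 (95% interval -0.29 to 0.13, adjusted p = 0.78 by limma). ILMN_3146420 gave 12.83 and 13.03 against 12.76 and 12.84, a difference of -0.13 (95% interval -0.35 to 0.082, adjusted p = 0.65 by limma). The lobes overlapped on both. The other 3 probes, ILMN_2467140, ILMN_2617892 and ILMN_3068197, had intensities between 64.9 and 103.6 and detection p-values from 0.136 to 0.762. The same gene was thus read as bright or at background, depending on the probe. The choroid plexus carries NKCC1 too. Of 10 choroid plexus genes 6 were tested, with 2 higher and 2 lower past the criterion, and their sum was 4878 and 15110 on the anterior and 8360 and 10770 on the posterior arrays, with the anterior arrays farthest apart. Enpp2, the brightest of them, was at -0.41. Ttr, the carrier of thyroid hormone that the choroid plexus secretes, was at 9.10 and 13.34 on the anterior and 8.37 and 11.85 on the posterior arrays, so it differed mainly between replicates and the lobes overlapped. Otx2 is among the 2 genes counted as higher and makes up part of the posterior sums, which were not taken without it. It was at 8.32 and 8.16 on the anterior and 12.31 and 11.82 on the posterior arrays. The study lists Otx2 among genes with compartmentalized expression in the developing cerebellum. The part of the choroid plexus in its rise was not tested. The other gene counted as higher, Prlr, passed only on its dimmer probe, while its brighter probe was at 0.20. Kl and Folr1 were not above background. The part of the choroid plexus in the signal of Slc12a2 was not tested.

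The exporter Slc12a5 (KCC2) had 1 probe, ILMN_1224363, at the edge of detection. Its intensity was 142.7 and 108.6 on the anterior and 123.4 and 123.3 on the posterior arrays, with detection p-values of 0.0481 and 0.0876 against 0.0758 and 0.0887. It passed on 1 array where 2 were required and was not tested. Gad2, the synaptic form of glutamate decarboxylase, was at background on its only probe, ILMN_2668908, with 65.1 and 66.2 in the anterior and 58.3 and 55.9 in the posterior lobes and detection p-values from 0.544 to 0.989.

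**Figure D3:**
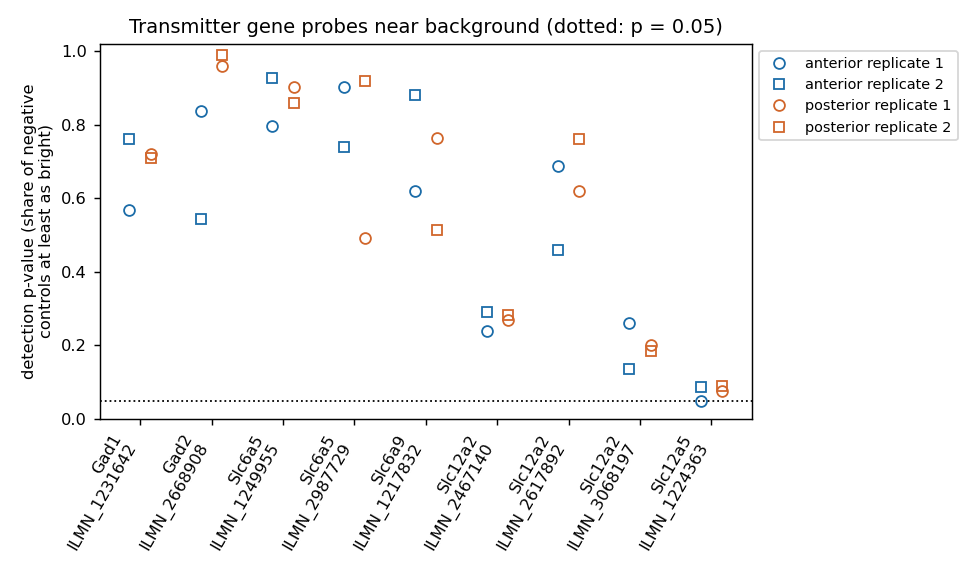
Detection p-value (vertical axis) of the 9 probes that were not tested (horizontal axis), on each array. Blue stands for anterior and orange for posterior lobes, circles for replicate 1 and squares for replicate 2, and the dotted line is at 0.05. Only Slc12a5 comes near the line, and it falls under it on the array of anterior replicate 1 alone, at 0.0481.

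The other genes that handle these transmitters were taken as 7 lists of 69 genes, of which 53 were tested. Genes were counted by any of their probes, which gives genes with several probes more chances than the 8.29% per probe above. By that count 3 genes were higher and 6 lower in the posterior lobes past the criterion, and none passed the adjusted p. The 6 include Shmt2, counted through a probe not detected on either posterior array. Its bound of at least 1.14-fold does not reach the criterion. Of the 7 plasma membrane glutamate transporters 6 were tested and none met the criterion. The median was -0.022, and Slc1a6, the transporter of Purkinje cells, had the largest difference, at 0.26 (95% interval -0.045 to 0.56). Slc1a3, the main glutamate transporter of Bergmann glia, was at 0.0044. Of 13 genes of glutamate and glutamine metabolism 10 were tested, with a median of -0.11. Glul, which makes glutamine in glia, was not above background.

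Among 10 genes of GABA uptake and breakdown 9 were tested, with a median of -0.041. Past the criterion, 2 genes were higher in the posterior lobes. Slc6a12, the betaine and GABA transporter BGT1, was at 8.11 and 8.33 on the anterior and at 8.91 and 9.65 on the posterior arrays, a difference of 1.06 (standard error 0.25, adjusted p = 0.28 by limma). Without posterior replicate 2 it was 0.69 and without posterior replicate 1 it was 1.44, and the call was lost with the methods' t-test. Slc6a13, the GABA transporter GAT2, was at 10.16 and 10.34 against 10.60 and 11.02, a difference of 0.56 (adjusted p = 0.36 by limma), which lost the call without posterior replicate 2 and with the methods' t-test. Both are known from the meninges. Of 10 genes of meningeal fibroblasts 9 were tested, and 6 were higher past the criterion. Of these 6, Fmod was detected on the 2 posterior arrays only. It was thus tested only through the lobe where it was higher, and its place in the count follows in part from the filter. Col3a1 was detected on 3 arrays. Both were near background, at log2 signals of 6.87 to 7.85 for Fmod and 6.93 to 7.63 for Col3a1. The sum of the list was 18970 and 20940 on the anterior and 28060 and 33170 on the posterior arrays, and Igf2, the brightest, was at 0.47. The list holds Ptgds and Igf2, whose rise was known when it was written. The part of the meninges in these signals was not tested.

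Of 9 genes of glycine synthesis and breakdown 7 were tested, with a median of -0.020. Shmt1, which makes glycine from serine in the cytosol, was higher on ILMN_1238412, from 10.45 and 10.50 to 10.80 on both posterior arrays, at 0.33 (adjusted p = 0.33 by limma), and its dimmer probe ILMN_2726055 was at -0.11. The call was lost without normalization, without posterior replicate 1 (0.33) and without posterior replicate 2 (0.32). Its mitochondrial relative Shmt2 was lower on the dim probe ILMN_2702703, which was not detected on either posterior array, so that only a bound of at least 1.14-fold lower can be given, while its bright probe was at -0.063. Glycine receptors had 3 tested genes of 6 on the list with their anchor. Glra2, the receptor subunit of the immature brain, was lower in the posterior lobes, from 12.22 and 12.15 on the anterior to 11.39 and 11.66 on the posterior arrays. The difference was -0.67 (standard error 0.11, 95% interval -0.93 to -0.40, adjusted p = 0.14 by limma), and the call held under the 15 alternatives. The shared subunit Glrb was at -0.23 and the anchor Gphn at 0.012, neither past the criterion, and Glra1, Glra3 and Glra4 were not above background.

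Of 18 further chloride transporters and their regulators 16 were tested, with a median of -0.038 and 2 genes lower past the criterion. Slc4a3, an anion exchanger of neurons that brings chloride in, was lower on 3 of its 4 probes, the brightest from 11.30 and 11.38 to 10.98 and 10.82, at -0.44 (standard error 0.094, adjusted p = 0.25 by limma). That call held under the 15 alternatives. Neto2, a membrane protein that binds KCC2, was lower on ILMN_1235540 at -0.46. That call was lost without posterior replicate 1 and with the methods' t-test. The brightest probe of Neto2 at -0.21 and the third at -0.10 did not meet the criterion. Of 6 other vesicular transporters only Slc17a5 and Slc17a8 (vGlut3) were tested. They stood at -0.027 and 0.092, and the monoamine and acetylcholine carriers Slc18a1, Slc18a2 and Slc18a3 were not above background.

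**Figure D4:**
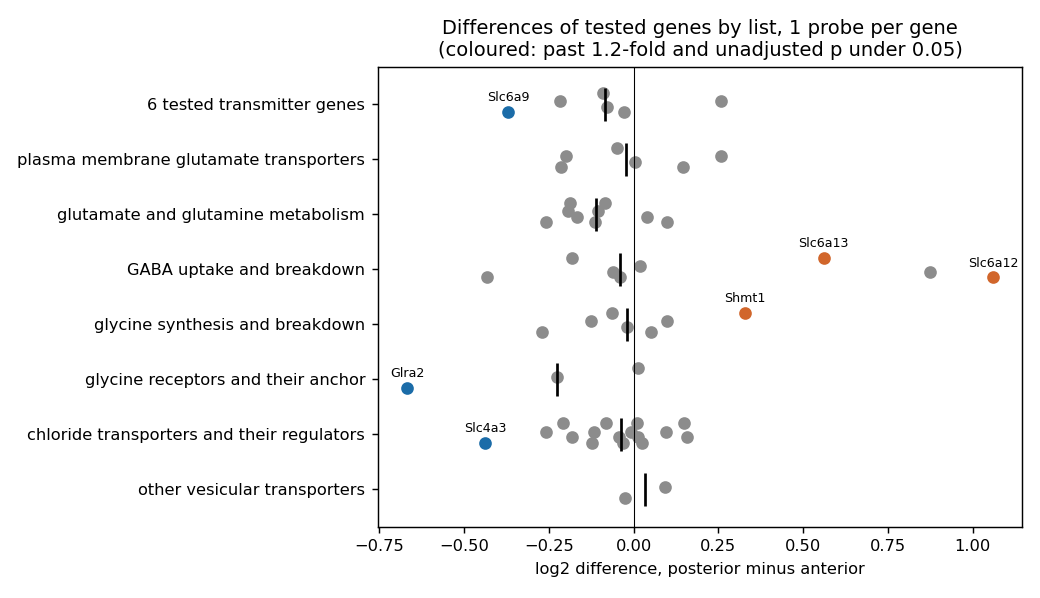
Log2 difference, posterior minus anterior (horizontal axis), of the tested genes of the 9 described here and of the 7 further lists (vertical axis), by the brightest probe detected on the most arrays. Orange (higher) and blue (lower) points met the criterion and are named, and short bars are medians, which lie between -0.23 and 0.033 in the lists and include 2 genes that are not drawn. Slc17a6 is drawn by ILMN_2922321, which did not meet it. Slc6a12 is farthest to the right, at 1.06, and Glra2 farthest to the left, at -0.67.

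Vessels and microglia were measured as well. Of 7 endothelial genes all were tested, with a median of 0.056 and Cldn5, the brightest, at 0.056. Cdh5, a junction protein of vessels, was higher past the criterion on its dimmer probe, at 0.46. Its brighter probe, at 0.20, did not meet it. Of 8 microglial genes 6 were tested and none met it, with a median of 0.022 and Cx3cr1, the brightest, at 0.034.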

How the data were processed

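Total RNA of 2 anterior and 2 posterior lobe samples was measured on Illumina MouseWG-6 v2.0 arrays. The authors deposited the mean bead intensity, the SD over beads and the number of beads of 45281 probes as GenomeStudio 1.9.0 exported them, without normalization, and a detection score, a fraction equal to 1 minus the detection p-value. Columns were assigned through the sample numbers in the labels, and 16 other columns were not used. The scanner export does not state a background subtraction.

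Intensities were quantile normalized, floored at 1 as in the methods of the study, and log2 transformed (R 4.3.3, limma 3.58.1). Probes detected (p-value below 0.05) on 2 or more of the 4 arrays were fitted by lobe (lmFit, eBayes with intensity trend), with Benjamini-Hochberg adjustment over 21726 probes. The fit was run on simulated data, with noise independent between arrays, only to check that it returns a known difference. That run does not test the p-values or calls of these arrays. The members and the gene lists (7 of transmitter handling, 12 of cell type markers) were chosen with earlier results of these data known. Named were the probes of the 9 genes, the genes of each transmitter list past the criterion or else that with the largest difference, and the brightest gene of each marker list. Other genes of the lists were chosen after their values were seen. Medians and sums use 1 probe per gene, the one detected on the most arrays and then the brightest, and sums are of normalized intensity. The alternatives were neqc (offset 16), cyclic loess, no normalization, scaling to 1 shared 75th percentile, other filters, a floor of 32, a replicate block, the methods' t-test, eBayes without trend, and each array left out in turn. Some genes of the lists are not reported here by name, though counts, medians and sums include them. Upstream sequences are from the RefSeq table of GRCm38.p6.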

Additional observations from a re-analysis of the deposited data

How the results depend on the processing

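The number of probes of the 9 genes past the 1.2-fold criterion, 2 by limma, was 1 without normalization and 1 with the methods' t-test, where Slc6a9 remained, and 0 at 1.5-fold. Leaving out an array gave 1 to 3. It was 1 without posterior replicate 1 (Slc6a9), where 3.58% of all tested probes passed, 3 without anterior replicate 1, where 22.1% did, and 3 without posterior replicate 2, where 3.80% did. The number past the adjusted p, 0 by limma, was 0 to 3 when an array was left out, with 3 without anterior replicate 1 (both probes of Slc17a6, and Slc6a9). It was 2 with the replicate block, Slc17a6 (ILMN_2773047, adjusted p = 0.042) and Slc6a9 (adjusted p = 0.039), where 2.71% of all tested probes passed. The labels do not say whether a shared replicate number marks a shared animal, and there are only 2 pairs. The difference of replicate 1 from replicate 2 in the anterior lobes had a correlation of 0.458, over all tested probes, with that in the posterior lobes. Samples of the same number thus had part of their signal differences in common, and the source of this was not tested. The call of Slc17a6 (ILMN_2773047) was also lost without normalization (0.32) and with the methods' t-test (0.30), and ILMN_2922321 gained it at a common 75th percentile (0.30).

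Signs turned only for probes whose interval includes 0. At a common 75th percentile Slc32a1 was at 0.0056 and Gad1 (ILMN_2621743) at 0.017. Leaving out an array, Gad1 lay between -0.19 and 0.0018 (ILMN_1234988), between -0.27 and 0.10 (ILMN_2573826) and between -0.12 and 0.10 (ILMN_2621743), and Slc12a2 (ILMN_2700059) between -0.19 and 0.029. The ratio of Slc17a7 to Slc17a6 shifted by -0.56 to -0.39. No intensity lies below the floor of 32, so that setting tests nothing. Of the differences of the 10 probes under alternatives 135 kept their sign and their side of the criterion, 4 lost the call, 4 gained it and 7 turned sign. Near-background probes limit what can be said of Gad2, Slc6a5 and Slc12a5.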
